A study of Gallus gallus with 4 samples.

Results

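A set of 28 genes had counts in cranial headfolds of the chick embryo that were at least halved after exposure to ethanol. The exon-part counts of each gene were summed and expressed as CPM, the usual scaling of a count to a common lane total, here the total outside the mitochondrial genome. A gene entered the set when its CPM in the higher ethanol lane was at most 0.5 of its CPM in the lower saline lane. It also had to have 100 or more counts over the 4 lanes and 2 or more annotated exon parts, and to lie outside the mitochondrial genome and chromosomes Z and W. Genes spanning 300000 bases or more, identifiers that merge overlapping genes, and genes that the authors listed for a change in exon usage were left out. These criteria without the halving left 10962 eligible genes of the 24513 in the count table. The 28 members were 0.255% of them, and by the mirror rule 338 eligible genes (3.08%) were at least doubled. The fall of the members is what chose them, so it is described here and not tested.

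The ethanol embryos, of the Special Black strain, received 0.43 mmol ethanol and were exposed to 52 mM for 90 min. The saline embryos were of the same strain and received isotonic saline. Headfolds of both groups were taken 6 hr after exposure began, at an incubation of about 27 hr when treated, and were pooled by 23. Poly-A RNA was read as paired 75 base reads in 2 lanes per group, with each group in a sequencing run of its own. The effect of the exposure and that of the run cannot be told apart.

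The headfolds are the rising neural folds of the future head with the tissue under them, and the neural crest cells that later build much of the face arise at their edges. Exposure to alcohol at this stage is known to harm these cells. In a genome assembly, an unplaced scaffold is a stretch of sequence that could not be assigned to a chromosome. In birds such stretches often come from the small, GC-rich chromosomes and from families of near-identical copies, which are hard to assemble. Reads from such copies can be placed at any of them, so the count of a single copy is uncertain.

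The lanes held 15388474 and 16991925 counts after ethanol, against 20951322 and 20861872 after saline. Mitochondrial genes took 33.3% and 32.9% of the counts in the ethanol lanes, against 44.2% in each saline lane. The saline lanes differed by about sampling noise (chi-square per degree of freedom 1.04 over genes) and were counted as 1 library. The ethanol lanes differed by more than that (5.61). Over the 28 members alone the ratio was 1.44 between the ethanol lanes and 0.561 between the saline lanes. The rule favours genes whose lanes agree, and the ratio falls with low counts. It therefore does not compare the members' reproducibility with that of other genes. Nothing in the labels says that the lanes of a group were separate pools, though the paper's table legends speak of both pooled samples. The sources used here do not settle this, and the spread between the lanes may be technical. A reference table of a later assembly matched none of the 24513 identifiers (0 matched). The paper's tables pair a small number of these identifiers with gene names, but none of a member or of a gene on the marker lists. Members are therefore given by position in Gallus gallus 5.0, and the tissue was not checked against marker genes.

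Summed over the 28 members, the level was 126.8 and 136.9 CPM in the ethanol lanes, against 339.8 and 342.9 CPM in the saline lanes. Single members averaged between 0.833 and 15.2 CPM after ethanol (median 3.17), against 3.39 to 37.5 CPM after saline (median 9.28). The ratio of mean ethanol to mean saline CPM ran from 0.221 to 0.471 with a median of 0.384. Members were thus weakly to moderately counted, with 103 to 1202 counts over the 4 lanes, and 16 of the 28 were under 10 CPM after saline. For counting error alone, the 95% interval of the ratio of pooled counts lay wholly under 0.5 in 15 of the 28. The same lanes and the same limit chose the members, so this number only describes the set and is no support for the fall. The intervals also leave out the difference between the ethanol lanes beyond counting error. In bulk tissue, fewer cells of a type and less RNA per cell cannot be told apart.

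**Figure D1:**
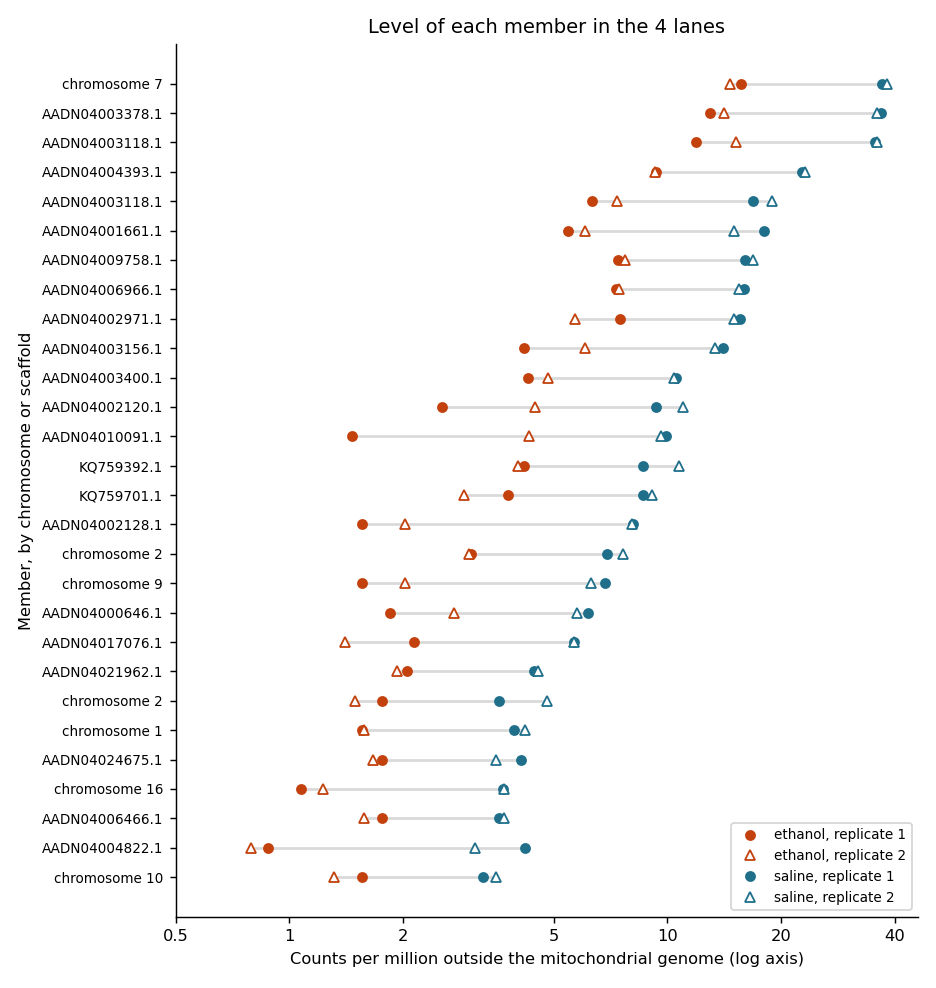
Level of each of the 28 members in CPM (log axis) in the 2 ethanol lanes (orange) and the 2 saline lanes (blue), ordered by saline level and named by chromosome or scaffold. The ethanol points of every member lie left of its saline points, which the selection rule fixes, and the widest gap between ethanol replicates is that of the member on AADN04010091.1, at 1.46 and 4.30 CPM.

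The edgeR quasi-likelihood fit over all genes outside the mitochondrial genome, which uses the same contrast as the rule, called 2053 of 18062 genes lower after ethanol at a false discovery rate of 0.1 (11.4%). All 28 members were among them, with log2 changes of -1.18 to -2.26 and a median of -1.47, against a median of 0.01 over all genes tested. DESeq2 called 736 genes lower (4.07%) and 16 members, and gave the other 12 members no adjusted p. These calls follow from the choice of members and are given only to place them in the whole table.

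Members just inside the limit were a gene on AADN04002971.1 (4740 to 5684) whose higher ethanol lane was 0.499 of its lower saline lane, one on AADN04024675.1 (2200 to 2539) at 0.498, and one on chromosome 2 (102121710 to 102124573) at 0.488. Just outside it were a gene on linkage group LGE64 (840103 to 842999) at 0.507, one on chromosome 12 (2403201 to 2404925) at 0.513, and one on AADN04014251.1 (3570 to 6178) at 0.519. No gap separated the set from the rest, since 13 eligible genes lay between 0.45 and 0.50 and 21 between 0.50 and 0.55. The plot of ratio against level shows the members at the lower edge of a continuous cloud.

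**Figure D2:**
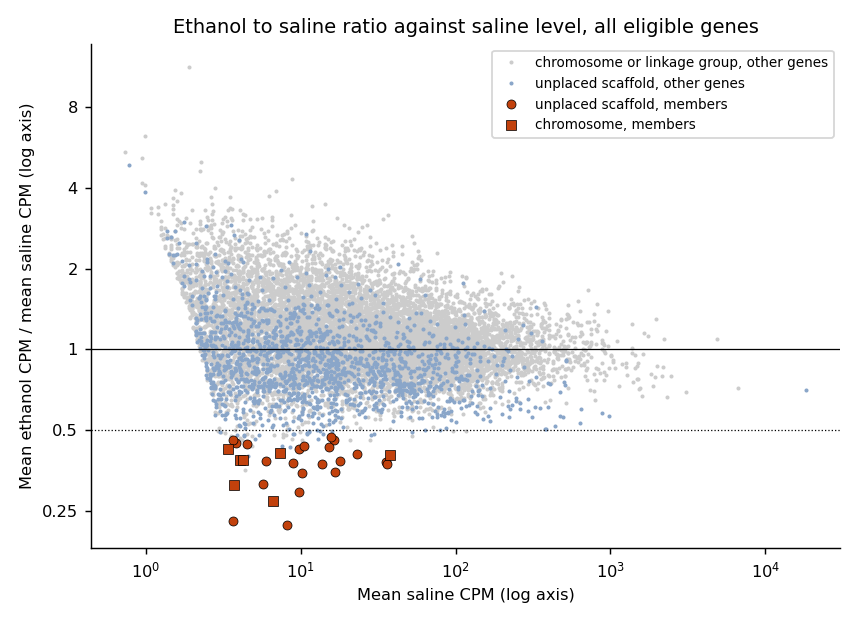
Ratio of mean ethanol to mean saline CPM against mean saline CPM (both log axes) for the 10962 eligible genes, with members in orange, other genes on unplaced scaffolds in light blue and other genes on chromosomes or the linkage group in grey. The members lie under 0.5 (dotted line) at saline levels of 3.39 to 37.5 CPM, and the light blue points lie lower than the grey ones, with a median ratio of 0.875 for the other genes on unplaced scaffolds against 1.11 for the other genes on chromosomes.

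The rule left out the mitochondrial genome, Z and W, but did not use whether a gene lies on an unplaced scaffold. Of the 28 members, 21 were on unplaced scaffolds and 7 on chromosomes 1, 2, 7, 9, 10 and 16. This put 75% of the members on unplaced scaffolds, against 14.8% of the other eligible genes. Set against their own class, 1.28% of the 1640 eligible genes on unplaced scaffolds were halved, against 0.0751% of the 9316 on chromosomes. Doubled genes had the opposite placing, with 0.915% of the eligible genes on unplaced scaffolds and 3.47% of those on chromosomes.

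The members stood at the low end of a class whose ratios were lower than those of chromosomal genes as a whole. Over all eligible genes on unplaced scaffolds the median ratio of ethanol to saline was 0.871, against 1.11 on chromosomes, and 66.8% of the 1619 unplaced genes outside the set had a ratio under 1, against 36.2% of the 9309 chromosomal genes outside it. Some small chromosomes had low medians too, with medians of 0.809 on chromosome 32, 0.811 on chromosome 16, 0.849 on chromosome 30 and 0.853 on chromosome 25, and linkage group LGE64 had 0.742. The large chromosomes 1 and 2 had medians of 1.17 each. With mitochondrial counts in the denominator the unplaced median turned to 1.04, against 1.33 on chromosomes, so its place under 1 depends on the scaling while its place under the chromosomal median does not.

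The ethanol lanes also differed from each other by place, which involves no saline lane. The ratio of ethanol replicate 2 to ethanol replicate 1 had a median of 1.16 over the unplaced genes outside the set, against 0.990 over the chromosomal genes outside it, and it was 1.30 on chromosome 32, 1.22 on chromosome 16 and 1.25 on chromosome 25. Between the saline lanes the same medians were 1.01 and 1.0. In the members the ratio of ethanol replicate 2 to ethanol replicate 1 had a median of 1.02 (range 0.655 to 2.94), and 15 of the 28 were higher in ethanol replicate 2. The rule used both ethanol lanes, so the members' lane ratio is not independent of their choice. The part of the difference between the ethanol lanes in the low ratios of unplaced genes was not tested.

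**Figure D3:**
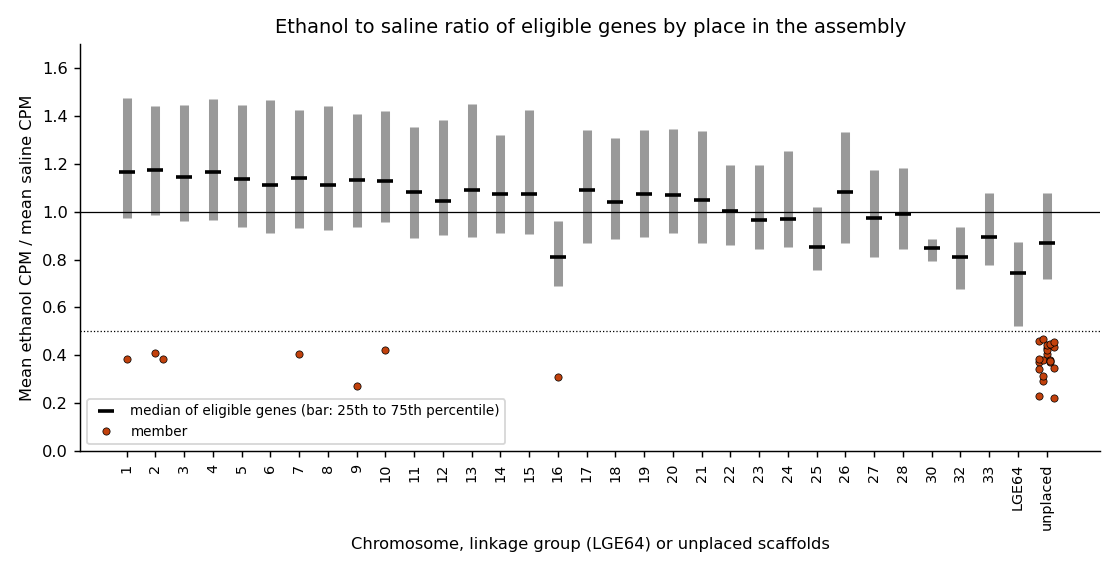
Ratio of mean ethanol to mean saline CPM of the eligible genes by chromosome, linkage group or unplaced scaffolds (black mark: median, grey bar: 25th to 75th percentile), with the 28 members as orange points. The median falls under 1 on chromosomes 16, 25, 30, 32 and 33, on LGE64 and on the unplaced scaffolds (0.871), where 21 members lie, and also, by less, on chromosomes 23, 24, 27 and 28. With mitochondrial counts in the denominator the unplaced median is 1.04.

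Members were short genes with few annotated exon parts. Their exonic length had a median of 885.5 bases, against 1941 bases in the other eligible genes, and 64.3% were under 1000 bases, against 16.3%. They had a median of 3 exon parts, against 9, and 8 of the 28 had the minimum of 2. Per kilobase of exon their saline level had a median of 11.6 CPM, against 11.3 CPM in the other eligible genes. The difference in length remained among genes with 100 to 1000 counts, at a median of 885 bases in 25 members and 1644 bases in 5361 other genes. Unplaced genes outside the set were also shorter than average (median 1502 bases, 5 parts).

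The member with the highest saline level was ENSGALG00000039707, on the plus strand of chromosome 7 (4390621 to 4391652), with 3 exon parts and 315 bases. It had 15.7 and 14.7 CPM in the ethanol lanes, against 36.9 and 38.0 CPM in the saline lanes, a ratio of 0.405 (95% interval 0.355 to 0.459, exact Clopper-Pearson, counting error only). The lanes of a group were close to each other. Its second exon part, of 130 bases, held 99.8% of its counts. The gene lies within the span of FN1, the gene of the matrix protein fibronectin as the paper's tables name it, which is on the minus strand and had 21071 and 22872 counts after ethanol, against 23575 and 23595 after saline, a ratio of 1.0. Their exon parts overlap by 303 bases and counting took no account of strand, so the strand of these counts cannot be told. The FN1 ratio is over the whole gene. The paper's tables list the first-numbered exon of FN1 as lower after alcohol. Whether the overlap lies in that exon was not examined.

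The member with the lowest ratio was ENSGALG00000033840, on the minus strand of scaffold AADN04002128.1 (6052 to 6981), with 2 exon parts of 517 and 346 bases. It had 1.56 and 2.02 CPM in the ethanol lanes, against 8.13 and 8.07 CPM in the saline lanes, a ratio of 0.221 (counting interval 0.153 to 0.315). Both its exon parts were low, at 0.245 for the 5' part and 0.191 for the 3' part. The edgeR log2 change was -2.26 with a standard error of 0.28, derived from the F statistic of the test. The lanes of a group may share a pool, so this error need not cover the spread between pools.

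Several members shared the lengths of all their exon parts with each other or with other genes. A match was counted when both genes had the same number of parts and each part agreed in length within 5% or 3 bases. Of the 20 members with 3 or more parts, 7 had such a match (35.0%), against 7.84% of the 1186 unplaced genes outside the set and 1.57% of all 9709 other eligible genes with as many parts. With all lengths required to be equal the contrast was smaller. Then 2 of the 20 members had a match (10%), against 4.13% of those unplaced genes and 0.711% of the other eligible genes. Of the 7 members, 3 matched only each other, so they are not separate observations. The only match of another, on chromosome 9, had no count in any lane. With 2 parts a match is easily met by chance, and 6 of the 8 members with 2 parts had one. Of the other eligible genes 1158 had a match, and only 152 of these had 3 or more parts. Most of the 1225 other eligible genes with 2 parts thus had one too, and a 2-part match does not set the members apart. A match in lengths is not a match in sequence, which was not examined.

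In the first of these groups, 3 members had parts of 92, 126 and 668 to 677 bases, and no other gene did. The gene on AADN04003378.1 (5063 to 6266) had 13.0 and 14.1 CPM after ethanol, against 36.6 and 35.9 CPM after saline. The gene on AADN04003118.1 (5868 to 7069) had 11.9 and 15.2 CPM after ethanol, against 35.4 and 35.8 CPM after saline. The gene on AADN04003156.1 (6806 to 8016) had 4.19 and 6.05 CPM after ethanol, against 14.0 and 13.4 CPM after saline. In all 3 ethanol replicate 1 was the lower ethanol lane, and the ratios of ethanol to saline were within a narrow band (0.373, 0.380 and 0.373). The 3' part held most of their counts, with ratios of 0.393, 0.392 and 0.398, while the 92 base part at the 5' end had 0.275, 0.308 and 0.153.

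In the second group, 7 genes had 7 exon parts of identical lengths (15, 154, 257, 71, 80, 112 and 163 bases), of which 2 were members. The member on AADN04003118.1 (8104 to 11002) had 6.33 and 7.37 CPM after ethanol, against 16.9 and 19.0 CPM after saline. The member on AADN04002120.1 (14277 to 17174) had 2.53 and 4.47 CPM after ethanol, against 9.33 and 11 CPM after saline. The ethanol lanes of the second differed by 1.77 times.

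The 5 genes of identical structure outside the set, 3 on unplaced scaffolds and 2 on LGE64, missed the limit but were low as well. Their ratios ran from 0.356 to 0.485 with a median of 0.461, and all 5 were lower after ethanol. Summed over all 7 genes, the level was 22.0 and 26.9 CPM after ethanol, against 59.7 and 59.9 CPM after saline, a ratio of 0.409. The sum does not depend on how reads were shared among the 7.

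Both groups lie side by side. On AADN04003118.1 and on AADN04003156.1 a gene of the 7-part group is followed on the same strand, after 1034 bases, by a gene of the 3-part group. On AADN04003156.1 the 7-part gene is not a member, with 1.27 and 2.37 CPM after ethanol, against 4.37 and 4.72 CPM after saline.

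The third group held 26 genes with 2 parts of about the lengths of ENSGALG00000033840, of which 25 were on unplaced scaffolds and 3 were members. Beside that gene, the member on AADN04002971.1 (4740 to 5684) had 7.5 and 5.70 CPM after ethanol, against 15.6 and 15.0 CPM after saline. The member on AADN04006966.1 (2222 to 3165) had 7.31 and 7.46 CPM after ethanol, against 15.9 and 15.5 CPM after saline. Of the 22 unplaced genes outside the set, 20 had 20 or more counts. After ethanol 19 of these 20 were lower, with a median ratio of 0.578 and a range of 0.469 to 1.12. For comparison, 66.8% of all other eligible genes on unplaced scaffolds were lower, with a median ratio of 0.875. Since a match of 2 parts is easily met by chance, the genes of this group need not be copies of each other. Summed over the 25 unplaced genes, the level was 102.8 and 102.0 CPM after ethanol, against 186.6 and 180.7 CPM after saline. The remaining gene, on chromosome 8, had the most counts of the group, 418 and 484 after ethanol, against 360 and 407 after saline, and a ratio of 1.26. With it the summed ratio of the group was 0.665.

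**Figure D4:**
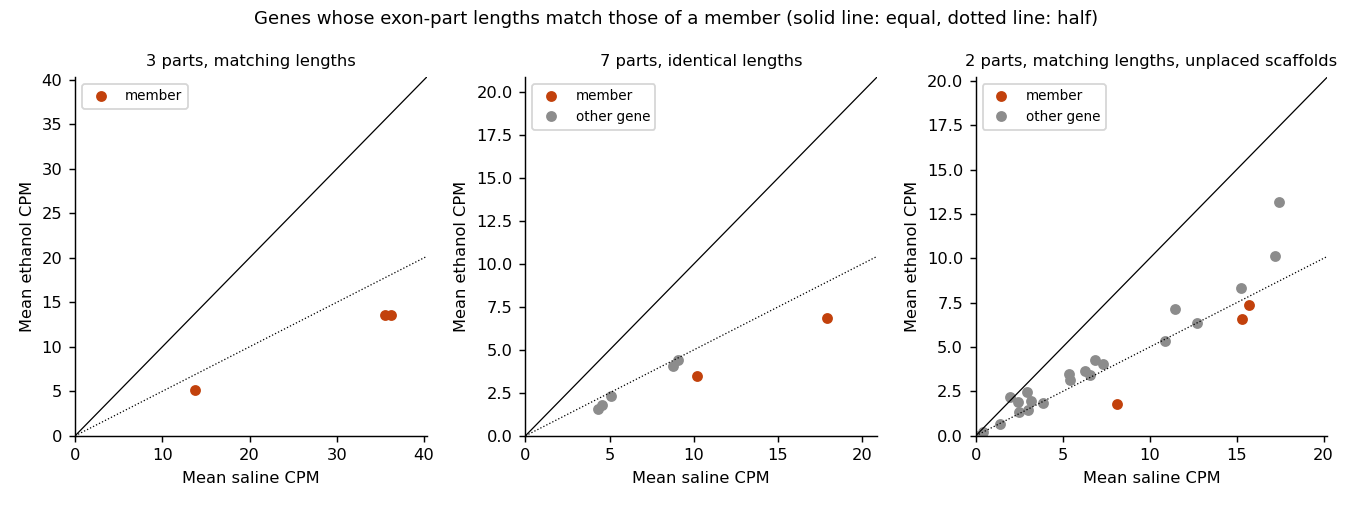
Mean ethanol CPM against mean saline CPM of genes whose exon-part lengths match those of a member, in the groups of 3 genes (3 parts), 7 genes (7 parts) and 25 genes (2 parts, the gene on chromosome 8 left out), with members in orange and other genes in grey. Solid lines mark equal levels and dotted lines a ratio of 0.5. The 3-part and 7-part genes lie under the dotted line, and most of the 2-part genes lie between the lines.

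A further member with 2 parts, on AADN04000646.1 (34080 to 35360), had parts of 318 and 153 bases, as did a gene on chromosome W (4454112 to 4455392). The member had 1.85 and 2.72 CPM after ethanol, against 6.16 and 5.75 CPM after saline. The gene on W, which the rule left out, had 3.12 and 1.84 CPM after ethanol, against 6.76 and 5.15 CPM after saline, a ratio of 0.416. The 6 other genes that matched within the tolerance included 2 with 20 or more counts, at 0.867 on AADN04016587.1 and 1.66 on chromosome 1. The 23 genes on W with 100 or more counts had a median ratio of 0.877.

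Opposite-strand genes overlapped the exon parts of 5 members, the one on chromosome 7 included, and counts of such parts cannot be assigned to a strand. The member on AADN04010091.1 (4614 to 8816) has the same start and end as a gene on the other strand. The member's exon parts share 2162 of their 2201 bases with that gene. It had 1.46 and 4.30 CPM after ethanol, against 9.93 and 9.62 CPM after saline. All its counts fell in a single part of 38 bases, shorter than a read, so its level is that of this part alone. Whether this part is among the shared bases was not examined. The gene on the other strand had 73.1 and 92.1 CPM after ethanol, against 144.3 and 156.4 CPM after saline, a ratio of 0.549.

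The member on AADN04004822.1 (12000 to 14362) shared 1426 exonic bases with a gene on the minus strand. It had 0.877 and 0.790 CPM after ethanol, against 4.19 and 3.09 CPM after saline, and its opposite gene had a ratio of 0.554. The member on AADN04024675.1 had 1.75 and 1.67 CPM after ethanol, against 4.11 and 3.52 CPM after saline, and lies within a gene on the other strand with a ratio of 0.582. In these 3 places the opposite gene was lower as well, by less than the member. The gene opposite the member on KQ759701.1 (68 to 6407) had no count in any lane, and that member had 3.80 and 2.90 CPM after ethanol, against 8.65 and 9.10 CPM after saline.

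Other genes with 100 or more counts on the members' scaffolds were low as well. The 21 unplaced members lay on 20 scaffolds, and 9 of these held 10 other genes. The 7 of these with 100 or more counts were all lower after ethanol, with ratios of 0.40 to 0.683 and a median of 0.554. Among the other eligible genes on unplaced scaffolds 66.8% were lower, with a median ratio of 0.875. The 7 include the counted opposite-strand genes on scaffolds described above and a gene of the 7-part group, so they are not all separate observations. On AADN04004393.1 the member (13681 to 14698) had 9.35 and 9.30 CPM after ethanol, against 22.7 and 23.2 CPM after saline, and an 18-part gene beside it had 42.1 and 52 CPM after ethanol, against 78.4 and 76.2 CPM after saline. On AADN04001661.1 the member (19684 to 20335) had 5.46 and 6.05 CPM after ethanol, against 18.1 and 15.0 CPM after saline. A 2-part gene on that scaffold (5242 to 6678) had a ratio of 0.683, and a weakly counted gene between them (14813 to 17286, 38 counts) had 0.977. Another weakly counted gene, on AADN04000646.1 (77011 to 77575, 20 counts), had a ratio of 1.09. The part lengths of the member on AADN04001661.1 (222 and 365 bases) matched those of 27 other genes, and of the 15 of these with 20 or more counts, 3 were lower, with a median ratio of 1.26. A match of 2 parts is easily met by chance, so these genes need not be copies of the member.

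The remaining unplaced members were the only genes on their scaffolds. The members on AADN04009758.1 (5092 to 6652) and AADN04003400.1 (12662 to 14217), with 6 parts each, had ratios of 0.459 and 0.436. Those on KQ759392.1 (21 to 6218) and AADN04017076.1 (1674 to 3679) had ratios of 0.424 and 0.313, and most of their counts lay in a single short part, of 65 bases (68.6%) and 137 bases (92.4%). Those on AADN04021962.1 (21 to 2201) and AADN04006466.1 (4990 to 7144) were weakly counted, with 0.442 and 0.457 and counting intervals that reached 0.635 and 0.681. Of the genes matching the last one in part lengths, one on AADN04002068.1 had a ratio of 0.617 and one on chromosome 1 had 1.24. The member on AADN04021962.1 had 4 matches, of which 2 had 20 or more counts, at 0.508 and 0.936.

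The 7 members on chromosomes were mostly weak and split into more parts (median 13). The one on chromosome 9 (15968402 to 15969646) had 1.56 and 2.02 CPM after ethanol, against 6.85 and 6.27 CPM after saline, and its ratio of 0.273 was the lowest of the 7. The one on chromosome 16 (337637 to 378917), the chromosome that carries the major histocompatibility complex in the chicken, had 1.07 and 1.23 CPM after ethanol, against 3.68 and 3.69 CPM after saline. It has 21 parts with 111 counts in all, and 44.1% of them fell in parts shorter than a read. Its span also crosses that of 6 other genes, none of which shares exonic bases with it.

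On chromosome 2 one member (3458925 to 3493540) had 3.02 and 2.98 CPM after ethanol, against 6.93 and 7.64 CPM after saline, and another (102121710 to 102124573) had 1.75 and 1.49 CPM after ethanol, against 3.60 and 4.81 CPM after saline. The members on chromosome 1 (51250968 to 51253146) and chromosome 10 (12084067 to 12101401) had ratios of 0.385 and 0.424, from 129 and 110 counts over the 4 lanes. The nearest eligible genes on either side, 14 in all at 342 to 621410 bases, had ratios of 0.610 to 1.80 with a median of 0.952, and 8 of them were under 1. Over the chromosomal genes outside the set the median was 1.11 and 36.2% were under 1. Whether the neighbours differ from that background was not tested.

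Most exon parts of the members with enough counts had low ratios, which the rule on their summed counts largely fixes. The 28 members have 163 annotated parts, of which 42 had no count and 62 had 20 or more. Of these 62, 49 had a ratio of ethanol to saline of 0.5 or less and 13 lay between 0.5 and 1, and none was at 1 or over (2 were with mitochondrial counts in the denominator), with a range of 0.0868 to 0.982. In 22 members at least 2 parts had 20 or more counts, and in 10 of them all such parts were at 0.5 or less. The other 6 members had 1 such part. The highest part, of 154 bases in the 7-part member on AADN04002120.1, had 4 and 9 counts after ethanol, against 6 and 8 after saline.

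**Figure D5:**
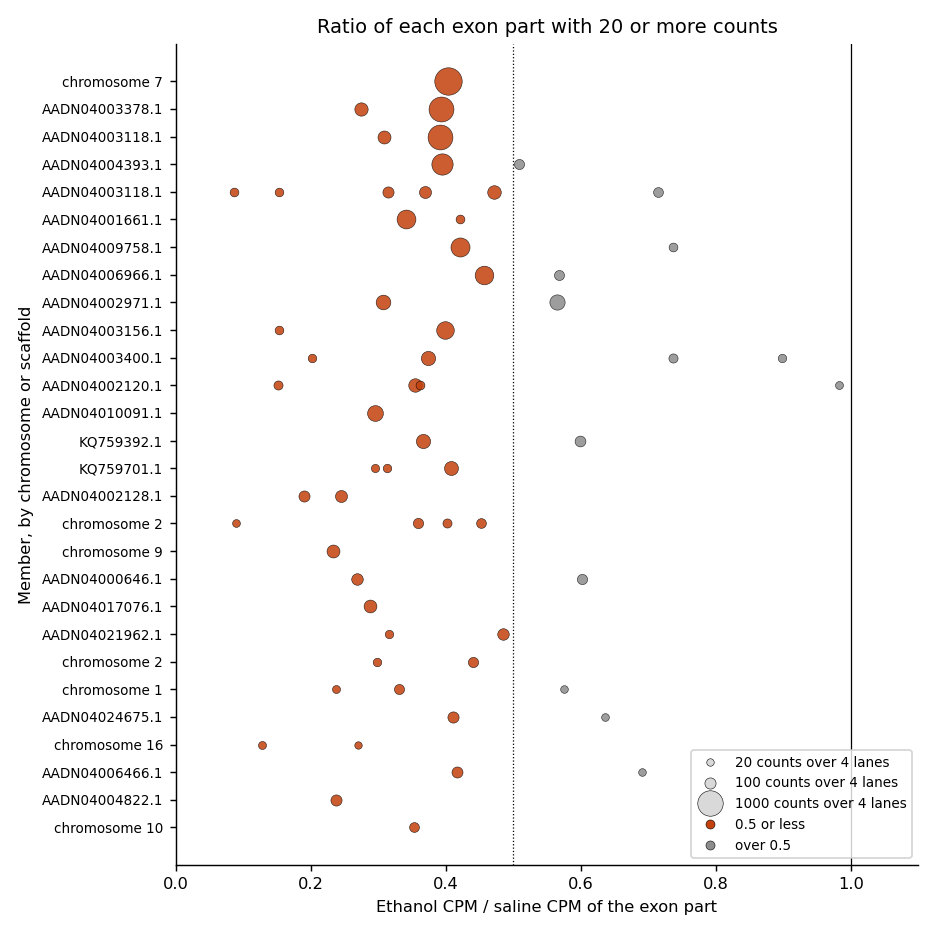
Ratio of ethanol to saline CPM for each exon part with 20 or more counts over the 4 lanes, by member in the order of saline level, with point area growing with the count. Of the 62 parts, 49 lie at or under 0.5 (orange) and 13 above it (grey), and none reaches 1 (solid line), although 2 do with mitochondrial counts in the denominator. The selection rule, which used the sum of a member's parts, largely fixes this.

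By position along the gene, over the members' 3'-most parts the ratio of summed CPM was 0.386, and over all their other parts it was 0.387. With the parts split in order along the transcript into 5 stretches, it was, 5' to 3', 0.295, 0.410, 0.418, 0.366 and 0.386. In the other eligible genes the same stretches gave 1.27, 1.13, 1.14, 0.988 and 0.992. In those of them on unplaced scaffolds they gave 0.876, 0.809, 0.815, 0.764 and 0.801. Genes with 2 parts enter only stretches 2 and 4, and genes with 3 parts only stretches 1, 3 and 5. Of the 28 members, 16 have 2 or 3 parts, so the stretches sum different genes and are no profile along a gene. Of the members' 661 counts in the first stretch, 176, 164 and 40 came from the 92 base parts of the first matching group. The low level of the members in these sums follows from the rule. In 14 of the 28 members a single part held 80% or more of the counts, as in 34.1% of the other eligible genes.

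Read in lanes that did not choose them, halved genes stayed low but most were no longer halved. Chosen on replicate 1 of each group alone, 226 of the 10962 eligible genes were halved. In replicate 2 these 226 had a median ratio of 0.674, with 208 lower after ethanol and 34 at 0.5 or less. Chosen on replicate 2 alone, 69 of the 10962 were halved. In replicate 1 these 69 had a median ratio of 0.512, with 66 lower and the same 34 at 0.5 or less. The 34 are 1 group of genes counted from either side, since each must be at 0.5 or less in both lane pairs. All 28 members are in both choices, and among the 34, by construction. Unplaced genes made up 130 of the 226 and 37 of the 69. By the ratio of group means, 40.8% of all eligible genes outside the set were lower after ethanol, and 66.8% of the unplaced ones. The replicate numbers only name the lanes, so the pairing is arbitrary. The lanes may hold the same pools, so this covers counting and lane differences only.

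The number of members depended on the scaling. With mitochondrial counts in the denominator the median ratio of all eligible genes was 1.28, against 1.07 without them, and 9 genes were halved. With DESeq2 size factors, which set that median to 0.993, 45 genes were halved, the 28 members among them.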

How the data were processed

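Reads were trimmed by the authors, aligned with Bowtie2 to the Gallus gallus 5.0 Ensembl genome and counted per exon part with featureCounts 1.5.2, with both mates mapped and without regard to strand. How reads from multi-copy sequence were placed is not given in the sources used here. The authors deposited these raw counts for 220717 exon parts, of which 51378 are shorter than the 75 base reads. A second deposited table holds exons that the authors had kept from DEXSeq. Its signal values are normalized counts that the authors made with DEXSeq size factors, its score values are the authors' exon usage coefficients, and its log2 values are the authors' fold changes of exon usage (saline over ethanol). None of these values was used. Only the identifiers of its 1251 genes were read, to leave them out.

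Counts were summed per gene and divided by the counts outside the mitochondrial genome, so 3 counts in a lane are worth 0.257 to 0.292 CPM. Genes with 10 or more counts entered a quasi-likelihood fit (edgeR 4.0.16, R 4.3.3) with TMM scaling and a Benjamini-Hochberg false discovery rate of 0.1, with the saline lanes summed into 1 library and the ethanol lanes kept as 2. DESeq2 1.42.0 was an alternative. The edgeR code was also run on simulated counts with the same low dispersion for every gene. That setting lacks the difference between the ethanol lanes seen here, so it says nothing on how well the fit suits these data. Other values were computed in Python with pandas and scipy. Intervals and floors cover counting error only. Alternatives were other scalings, count minimums, tests and exon parts, leaving out each replicate and choosing on 1 lane pair. The members and lists were chosen with earlier results of these data known. Members named by identifier were the one of highest saline CPM and the one of lowest ratio, and the others are given by position. None of the identifiers is in the reference table of a newer assembly. The paper's tables pair no identifier with the name of a member or of a listed cell type marker. Gene lists and markers were therefore not used.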

Additional observations from a re-analysis of the deposited data

How the results depend on the processing

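The number of members was 28 as reported. It was 9 with mitochondrial counts in the denominator, 45 with DESeq2 size factors and 17 with a count minimum of 200, and it was 226 and 69 when chosen on replicate 1 or replicate 2 of each group alone. Leaving out 1 lane gave 35 to 162 members, the highest without ethanol replicate 2 and 49 without ethanol replicate 1. By the form of the rule, fewer lanes can only add genes, and all 28 members stayed in each of these choices. Likewise, a higher count minimum can only take genes out. It stayed within 1.5 times of 28 with TMM-scaled CPM (37), a count minimum of 50 (34), parts under 75 bases left out (25), the 3'-most part left out (25, of which 16 were among the 28) and, chosen after seeing the data, genes of matching part lengths summed (24). Members called lower by edgeR numbered 28 under each of its alternatives and 16 with DESeq2's Wald test, which gave the other 12 no adjusted p. Genes called lower numbered 2053, against 1281 with library size alone, 736 with DESeq2's Wald test, 3599 with every lane its own library, and 1738 to 3987 with 1 lane left out (the highest without ethanol replicate 2, and 3473 without ethanol replicate 1). In the fits without an ethanol lane the 2 saline lanes were kept apart and were the only replicates. With every lane its own library they were kept apart too. The saline lanes differ by about sampling noise, so 3987, 3473 and 3599 calls do not compare with 2053. The same limit holds for the 28 members called in those fits. The members' median log2 change was -1.47, against -1.37 with library size alone and -1.48 to -1.40 with 1 lane left out. Apart from what the form of the rule fixes, the causes of these shifts were not tested. The median share of a member's counts in its 3'-most part was 16.8% after ethanol and 15.2% after saline, and 48.0% and 53.3% over parts of 75 bases or more. No paired analysis was possible because the labels number no replicates, and the numbers used here only name the lanes. Members stood at 0.833 CPM or more after ethanol, and 3 counts in a lane are worth up to 0.292 CPM. The same lanes and limit chose the members, so the counting interval of the ratio is a description only. It lay wholly under 0.5 in 15 of the 28 members. In the others it reached over 0.5, also at 526 counts, as in the member on AADN04006966.1 (0.388 to 0.568). The treatment cannot be told apart from the run.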
